A study of Ovis aries with 9 samples.

Results

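The BCL2 family sets the threshold at which a mitochondrion releases its contents and commits a cell to apoptosis, and 10 genes, 9 of the family and BCL9, were followed here in ovine granulosa cells (GCs): BCL2, BCL2L1, MCL1, BAX, BAK1, BID, BAD, BCL2L11, BBC3 and BCL9. The rows were chosen by name, as those of the gene table whose symbol equals one of these, and that step used no measured value. The list of genes itself was drawn up with earlier results of these data known. Of the 39157 rows of the table, 14432 carried a symbol, and 8 of the 10 genes were matched by exactly that symbol. BID and BBC3 were matched by no row under any spelling of upper or lower case and are not analysed here. All 8 matched genes passed the filter on low values.

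GCs, the somatic cells that surround and feed the oocyte, came from follicles of 3 to 5 mm of thin-tailed Han ewes aged 1 year or slightly more, and the cells of many ovaries were pooled, so that no library stands for 1 animal. They were grown for 48 h in medium with serum, held for 8 h without glucose and serum, and then kept for 24 h with 0 mM glucose (CON), 8.4 mM glucose (LOW) or 33.6 mM glucose (HIGH). RNA freed of ribosomal RNA was sequenced in 9 libraries, 3 per group. All groups, CON included, went through the glucose- and serum-free period, and nothing in the labels says whether the 3 libraries of a group were separate pools or wells of 1 cell suspension, so p-values measure only the spread between these libraries.

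Members of the family fall into roles. The guardians BCL2, BCL2L1 (BCL-X) and MCL1 hold the effectors in check. The effectors BAX and BAK1 form the pores of the outer mitochondrial membrane through which cytochrome c escapes. The BH3-only proteins, among them BAD, BCL2L11 (BIM), BID and BBC3 (PUMA), sense stress and occupy the guardians or activate the effectors. BCL9 shares part of its name with the family but not its fold: it is a nuclear coactivator that joins β-catenin to Pygopus in Wnt signalling. In the ovary, loss of GCs by apoptosis accompanies atresia, the decay of follicles that will not ovulate.

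The values are FPKM, fragments per kilobase of transcript relative to library depth, which are per length and so can be set side by side between genes. Unless said otherwise they are given as scaled FPKM, in which each library was divided by a factor set on the median of well expressed genes. Taken as fragments, the factors that link the deposited tables put 48.0 to 71.3 fragments, depending on the library, behind each kilobase of RNA at an FPKM of 1. That conversion was not checked against numbers of reads. The number of genes with a value above 0 ran from 25403 in CON 3 to 28244 in CON 1, and the sum of deposited FPKM over all genes ran the other way, from 803786 in CON 1 to 1370942 in CON 3. The granulosa label was checked against its markers. Of 11 markers 8 were matched, and CYP19A1, FOXL2 and AMH were not. The summed level was 171 to 255 FPKM, most of it CYP11A1 at 139 to 206. INHA lay at 8.39 to 20.5 FPKM, NR5A1 at 8.70 to 14.8, FST at 7.91 to 10.3 and INHBA at 4.12 to 5.11. FSHR, a receptor typical of the cell type, lay at 0.23 to 0.59 FPKM, AMHR2 at 0.43 to 0.82 and HSD17B1 at 0.10 to 0.65. The 8 genes of a fibroblast and smooth muscle list summed to 4580 to 6981 FPKM, with LUM at 1742 FPKM or more in every library. The 4 endothelial markers were each below 0.1 FPKM on average and CDH5 was at 0 in all libraries, the 2 theca markers matched summed to at most 0.43 FPKM, and the 4 leukocyte markers summed to 14.8 to 21.3 FPKM. In a bulk sample, fewer cells of a type and less RNA per cell cannot be told apart.

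The 8 genes spanned more than 2 orders of magnitude, and MCL1 alone carried most of the guardian RNA. MCL1 had a mean of 147 FPKM over the 9 libraries and stood at the 98.6th percentile of genes with a symbol. BCL2L1 followed at 27.9 FPKM, at the 90.1th percentile. BCL9 (10.7), BAK1 (9.78), BAD (9.27), BAX (8.80) and BCL2L11 (5.83 FPKM) formed a middle group, and BCL2 was last at 0.751 FPKM, at the 34.7th percentile. The ranges over the 9 libraries of MCL1, BCL2L1 and BCL2 met no neighbour in this order, whereas the ranges of the 5 genes of the middle group overlapped from one to the next. As a share of the FPKM of the 3 guardians, MCL1 made up 80.5% to 86.2%, BCL2L1 13.4% to 19.1% and BCL2 0.242% to 0.564%. With all transcripts of each gene summed, the effectors were nearly even, with BAX at 40.9% to 53.1% of their sum. BAX-OT1, an assembled overlapping transcript, supplied 25.7% to 39.6% of the deposited BAX FPKM. Without it the share of BAX would be lower.

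**Figure D1:**
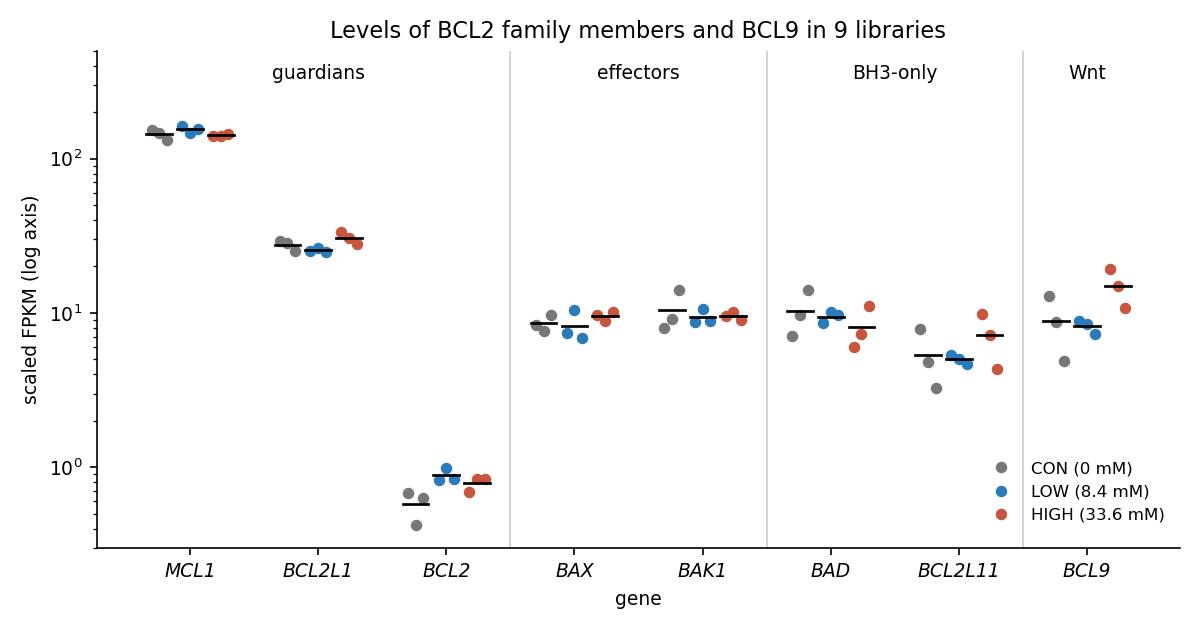
Scaled FPKM on a log axis for the 8 genes, ordered by role, with 1 point per library, colours for CON, LOW and HIGH, and a black line at each group's mean. MCL1 lies at 133 to 163 FPKM and BCL2 at 0.424 to 0.982 FPKM, and within most genes the 3 groups lie on top of each other.

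None of the 8 genes passed the study's thresholds, an adjusted p-value under 0.05 with an absolute log2 fold change above 1, in any comparison of glucose groups. In the limma fit across 24360 genes, 2 genes (0.00821%) were called in each of LOW versus CON, HIGH versus CON, HIGH versus LOW, and LOW versus the mean of CON and HIGH, so the background share of calls was itself near 0. At an unadjusted p under 0.05 stood 1 of the 8 genes in LOW versus CON, against 1.84% of all genes, 1 in HIGH versus CON against 6.7%, 2 in HIGH versus LOW against 7.66%, and 0 in LOW versus the mean of the other groups against 3.51%. The 3 libraries of one group all lay beyond the 3 of the other for 1 gene in LOW versus CON (6.28% of all genes), 1 in HIGH versus CON (9.35%) and 3 in HIGH versus LOW (18.9%). The median log2 difference of the 8 genes was -0.03, 0.16 and 0.13 in these 3 comparisons, beside 0.01, 0.07 and 0.06 over all genes tested. The comparisons share libraries, so they are not independent of each other.

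**Figure D2:**
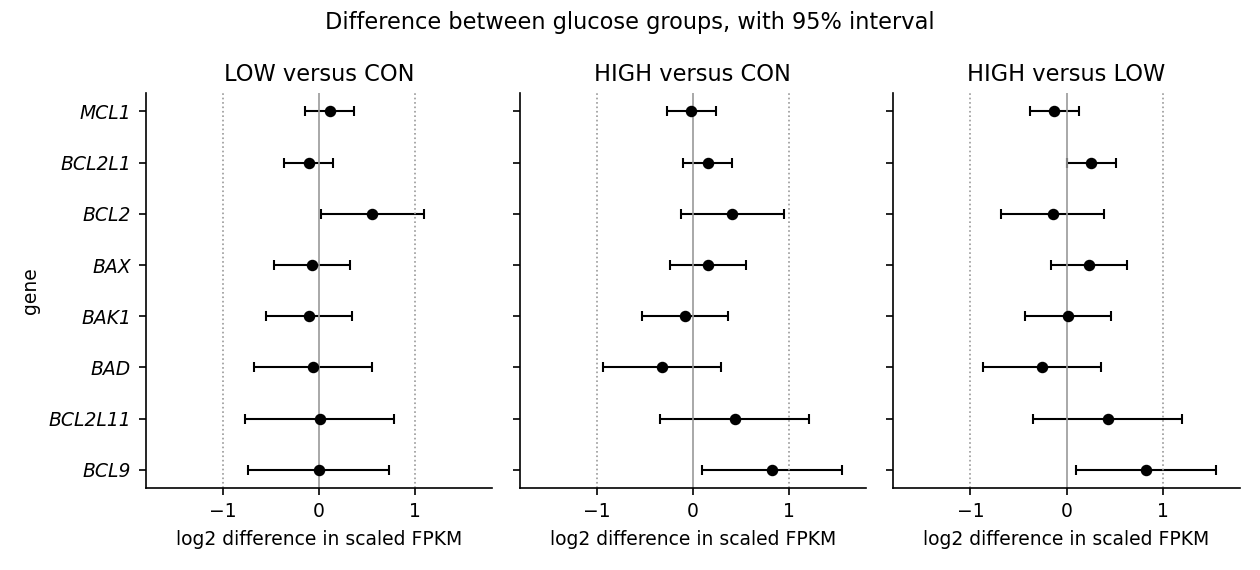
Log2 difference in scaled FPKM of the 8 genes for LOW versus CON, HIGH versus CON and HIGH versus LOW, as points with 95% intervals, with dotted lines at the call limit of 1 on either side. Every point lies inside the dotted lines, and 4 intervals leave out 0: BCL2 in LOW versus CON, BCL9 in HIGH versus CON and HIGH versus LOW, and BCL2L1 in HIGH versus LOW, of which all but the last reach beyond 1.

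Among the guardians, MCL1 was the steadiest. MCL1 binds and restrains BAK1 and BIM, and its protein is short-lived. It measured 152, 146 and 133 FPKM in CON, 163, 147 and 156 in LOW, and 141, 140 and 145 in HIGH. The lowest LOW library lay just above the highest HIGH library, and CON overlapped both groups. On FPKM as deposited LOW and HIGH overlapped, with LOW 2 at 139.6 and HIGH 2 at 148.5. The log2 difference was 0.11 ± 0.11 (SE) for LOW versus CON, -0.02 for HIGH versus CON and -0.13 for HIGH versus LOW, with limma adjusted p-values of 1, 0.963 and 0.695. The 95% interval of the last ran from -0.38 to 0.12, so a difference of the size that a call needs lay outside it.

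BCL2L1 encodes BCL-X, whose long form protects cells and whose short form does not, and FPKM per gene does not separate the forms. Its levels were 29.1, 28.4 and 25.1 FPKM in CON, 25.3, 26.4 and 24.96 in LOW, and 33.4, 30.5 and 28.1 in HIGH. All HIGH libraries lay above all LOW libraries, and CON overlapped both. The log2 difference for HIGH versus LOW was 0.26 ± 0.11 (SE), a fold of 1.20 with a 95% interval of 1.002 to 1.43, at an unadjusted p of 0.0476 and a limma adjusted p of 0.636. Scaled to ACTB instead, a reference gene of the study's PCR, this difference was 0.08, scaled to GAPDH, another, it was 0.40, and without scaling 0.34. The gene value sums a pair of transcripts. BCL2L1-201 held 74.1% to 82.05% of it, and the assembled TCONS_00068553 held the rest, with a log2 difference of 0.50 for HIGH versus LOW (unadjusted p = 0.0427, adjusted p = 0.715 in limma).

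BCL2, the founding member of the family, showed its lowest values in CON, yet the level was low enough that few fragments stood behind it. It measured 0.678, 0.424 and 0.631 FPKM in CON, 0.827, 0.982 and 0.842 in LOW, and 0.691, 0.843 and 0.836 in HIGH. Every LOW and every HIGH library was above every CON library, in HIGH by a margin of 0.691 against 0.678, and on FPKM as deposited HIGH overlapped CON. The group means were 0.578 ± 0.135 in CON, 0.884 ± 0.085 in LOW and 0.790 ± 0.086 FPKM in HIGH (SD, n = 3 each). The log2 difference for LOW versus CON was 0.56 ± 0.24 (SE), a fold of 1.47 with a 95% interval of 1.01 to 2.13 (unadjusted p = 0.0433, adjusted p = 1 in limma). Without CON 2, the library with the lowest value, it was 0.38 (unadjusted p = 0.173). For HIGH versus CON it was 0.41 ± 0.24 (unadjusted p = 0.118, adjusted p = 0.656 in limma).

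The BCL2 gene value was not one transcript. The gene spans chr23:61627338-61821263 in the coordinates of the files, whose build is not stated in the sources used here. It sums BCL2-201, which spans only 606 bases at chr23:61820658-61821263, and BCL2-AS1, an assembled transcript named as antisense that spans 193603 bases at chr23:61627338-61820940. Of the deposited BCL2 FPKM, BCL2-AS1 supplied 5.23%, 22.6% and 0% in the CON libraries. In the LOW libraries it supplied 0%, 30.7% and 22.6%, and in the HIGH libraries 13.5%, 45.5% and 32.8%. It was above 0 in all 3 HIGH libraries and at 0 in 1 library each of CON and LOW.

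For BCL2-201 alone the deposited FPKM was 0.720, 0.333 and 0.609 in CON, 0.818, 0.648 and 0.608 in LOW, and 0.611, 0.487 and 0.537 in HIGH, and on this scale LOW overlapped both other groups, whereas after scaling LOW lay above CON and above HIGH. With its span taken as the longest its RNA can be, the unchecked conversion to fragments puts these values at 14 to 31 fragments per library at most. At so few fragments counting error alone would be large. The log2 difference of BCL2-201 was 0.42 ± 0.30 (SE) for LOW versus CON (unadjusted p = 0.198) and 0.08 ± 0.30 for HIGH versus CON (unadjusted p = 0.809), with adjusted p-values of 1 and 0.949 in limma. BCL2-AS1 had 0.71 ± 0.60 and 1.25 ± 0.60 in the same comparisons, neither of them called. In the gene fit with antisense and overlapping lncRNA transcripts left out, an alternative chosen after seeing the data, the BCL2 difference was 0.41 (unadjusted p = 0.178) for LOW versus CON and 0.05 for HIGH versus CON. Which strand the kit and the counting kept is not given in the sources used here, so reads of BCL2 and of its antisense partner cannot be told apart where they overlap.

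**Figure D3:**
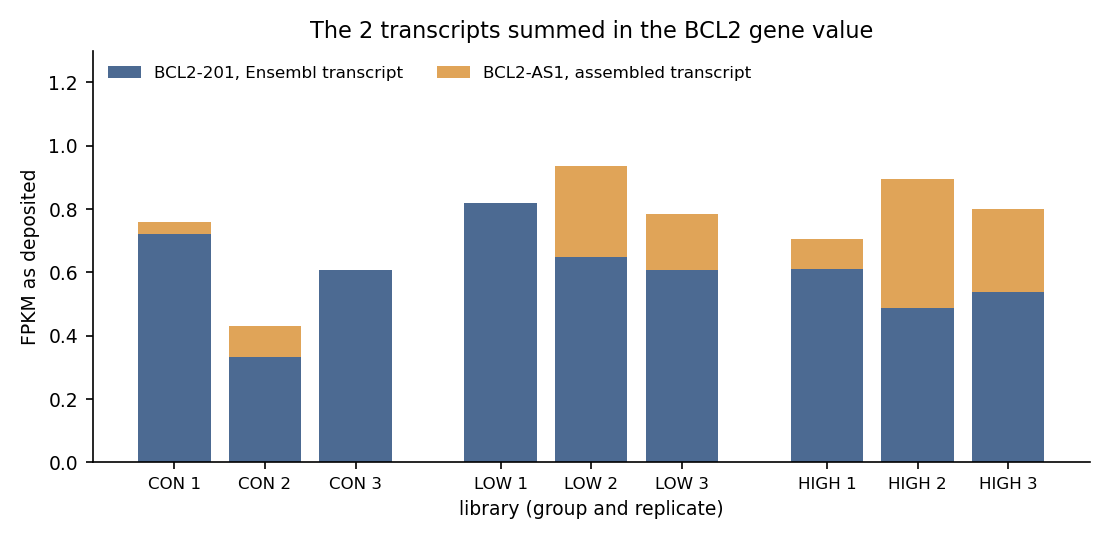
Deposited FPKM of BCL2 in each of the 9 libraries as stacked bars, with BCL2-201 below and BCL2-AS1 above. The antisense part is at 0 in CON 3 and LOW 1 and reaches 45.5% of the bar in HIGH 2, while BCL2-201 lies between 0.333 and 0.818 FPKM.

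The effectors showed no group that stood apart. BAX, which moves from the cytosol to the mitochondrion when activated, measured 8.38, 7.64 and 9.74 FPKM in CON, 7.39, 10.5 and 6.88 in LOW, and 9.71, 8.85 and 10.2 in HIGH. LOW held both the lowest and the highest library of all 9. The log2 difference was -0.08 ± 0.18 (SE) for LOW versus CON, 0.16 for HIGH versus CON and 0.24 for HIGH versus LOW, with unadjusted p-values of 0.678, 0.383 and 0.210 in limma. Without LOW 2 the first of these was -0.26, and without LOW 3 it was 0.04. BAX-OT1, an assembled overlapping transcript that spans 416 bases, made up 25.7% to 39.6% of the deposited BAX FPKM. BAX-201 alone had log2 differences of -0.01 ± 0.19 (SE), 0.10 and 0.11 in the same 3 comparisons.

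BAK1, the effector resident in the mitochondrial membrane, measured 7.94, 9.17 and 14.0 FPKM in CON, 8.78, 10.6 and 8.90 in LOW, and 9.51, 10.1 and 8.97 in HIGH. CON 3 was the highest library and CON 1 the lowest. The log2 differences from CON were -0.10 ± 0.20 (SE) in LOW and -0.08 ± 0.20 in HIGH. Without CON 3 they were 0.14 and 0.15, so their direction rested on that library.

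The BH3-only genes varied more inside a group than between groups. BAD, which loses its hold on the guardians when phosphorylated by survival kinases, measured 7.05, 9.66 and 14.0 FPKM in CON, 8.56, 10.1 and 9.70 in LOW, and 6.01, 7.32 and 11.0 in HIGH. CON alone spanned nearly the whole range. The log2 difference from CON was -0.06 ± 0.27 (SE) in LOW and -0.32 ± 0.27 in HIGH (unadjusted p = 0.823 and 0.269 in limma). BAD-201, the Ensembl transcript, held only 1.63% to 2.70% of the BAD value, and the assembled TCONS_00161445, which spans 15875 bases around it, held the rest. With Ensembl transcripts alone, also chosen after seeing the data, the 2 differences were 0.26 and 0.17, on the other side of 0.

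BCL2L11 encodes BIM, a BH3-only protein that is raised at the level of transcription when growth factors are withdrawn. It measured 7.88, 4.79 and 3.27 FPKM in CON, 5.34, 5.03 and 4.68 in LOW, and 9.90, 7.22 and 4.34 in HIGH. CON and HIGH each spread over more than a doubling and both covered LOW. The log2 difference was 0.01 ± 0.34 (SE) for LOW versus CON, 0.43 for HIGH versus CON and 0.43 for HIGH versus LOW, with limma adjusted p-values of 1, 0.657 and 0.674. The value sums 7 transcripts, of which BCL2L11-201 held 2.73% to 10.02% and 5 assembled sense transcripts held most of the rest. With Ensembl transcripts alone the difference for LOW versus CON was -0.27.

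The ratio of BAX to BCL2, often used as an index of how far a cell leans to apoptosis, was highest in CON and lowest in LOW. It was 12.4, 18.05 and 15.4 in CON, 8.94, 10.7 and 8.17 in LOW, and 14.05, 10.5 and 12.2 in HIGH. All CON libraries lay above all LOW libraries, and HIGH overlapped both. No test was made, since the genes of the ratio were chosen with results known. On the log2 scale the LOW mean lay 0.72 below CON, and the HIGH mean lay 0.31 below CON and 0.40 above LOW, beside a pooled SD of 0.23 between libraries of a group. With the antisense and overlapping transcripts left out, the CON libraries had ratios of 9.49 to 16.6, the LOW libraries 6.44 to 10.3 and the HIGH libraries 10.9 to 12.7. LOW then overlapped CON, the difference of HIGH from CON was 0.05, and HIGH lay above LOW without overlap.

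Ratios that weigh the abundant guardians did not separate the groups. The BAX values in them include BAX-OT1. The ratio of BAX to BCL2L1 was 0.315 ± 0.064 in CON, 0.322 ± 0.065 in LOW and 0.315 ± 0.041 in HIGH (SD, n = 3 each). The ratio of BAX to MCL1 was 0.060 ± 0.011, 0.054 ± 0.015 and 0.067 ± 0.004. For every 100 FPKM of guardians, the effectors BAX and BAK1 together had 8.97, 9.59 and 15.0 FPKM in CON, 8.55, 12.1 and 8.66 in LOW, and 10.97, 11.04 and 10.99 in HIGH. CON reached highest, with CON 3, and LOW reached lowest, while the 3 HIGH libraries were almost equal and lay inside both ranges. BAD and BCL2L11 together had 9.12 ± 1.55, 7.97 ± 0.67 and 8.80 ± 0.30 FPKM per 100 FPKM of guardians in CON, LOW and HIGH. BCL2, at no more than 0.564% of the guardian FPKM, has almost no weight in these sums.

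**Figure D4:**
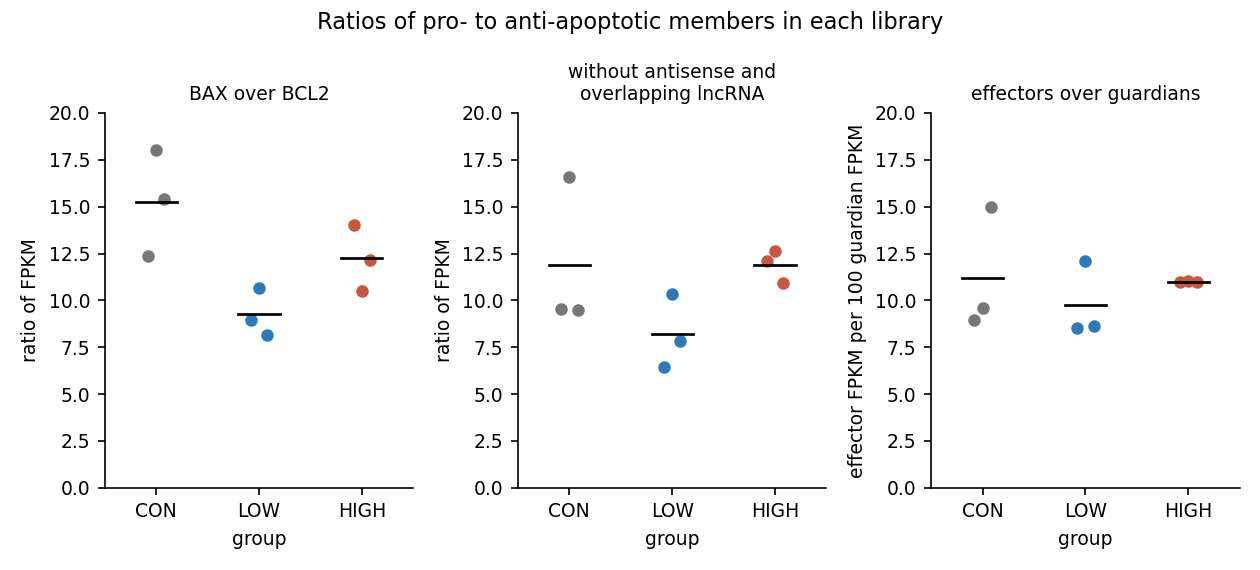
Ratios in each library by group, with a black line at the group mean: BAX over BCL2, the same without antisense and overlapping lncRNA transcripts, and effector FPKM (BAX and BAK1) per 100 guardian FPKM (BCL2, BCL2L1 and MCL1). CON and LOW are apart in the first panel (12.4 or more against 10.7 or less) and overlap in both others.

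BCL9 showed the largest difference of the 8 genes, and its libraries spread widely within CON and HIGH. It measured 12.8, 8.70 and 4.89 FPKM in CON, 8.81, 8.48 and 7.28 in LOW, and 19.2, 14.9 and 10.7 in HIGH. All HIGH libraries lay above all LOW libraries, while CON 1 lay above HIGH 3. The means were 8.80 ± 3.96 in CON, 8.19 ± 0.80 in LOW and 14.97 ± 4.26 FPKM in HIGH (SD, n = 3 each). The log2 difference was 0.82 ± 0.33 (SE) for HIGH versus CON, a fold of 1.77 with a 95% interval of 1.07 to 2.94 (unadjusted p = 0.0308, adjusted p = 0.656 in limma). For HIGH versus LOW it was 0.83 ± 0.33 (unadjusted p = 0.0305, adjusted p = 0.625 in limma), and LOW differed from CON by -0.002 with an interval of -0.73 to 0.73. Leaving out CON 1 gave 1.15 for HIGH versus CON (adjusted p = 0.178 in limma) and leaving out CON 3 gave 0.46. BCL9-201, at chr1:97700556-97714424, held 94.3% to 96.9% of the value and had like differences (0.85 for HIGH versus CON and 0.84 for HIGH versus LOW).

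Over the 21 transcripts of the 8 genes, all tested, 0 were called in any comparison by limma, against 0.0279% of the 39460 transcripts tested in LOW versus CON, 0.0279% in HIGH versus CON and 0.0355% in HIGH versus LOW. At an unadjusted p under 0.05 stood 0 in LOW versus CON against 2.72% of all transcripts tested, 1 in HIGH versus CON (BCL9-201) against 6.01%, and 2 in HIGH versus LOW (BCL9-201 and TCONS_00068553 of BCL2L1) against 6.89%.

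BCL2, BAX and BCL9 were also measured by the study with quantitative PCR, and the primers fix which RNA that assay reads. They are shown 5′ to 3′ for that reason, with no position, since no genome was used here.
BCL2 forward: cgctgaagcgaagctgtaga
BCL2 reverse: cgttgagcctgaaagctgttt
BAX forward: tgccagcaaactggtgctcaa
BAX reverse: gcactccagccacaaagatggt
BCL9 forward: tcgcctgttcacctcaagtc
BCL9 reverse: gggaggttttggagacgagg
A primer pair reads the RNAs that hold both of its sites, whereas the FPKM of BCL2 and BAX summed 2 and 4 transcripts. The paper names GAPDH as internal control for mRNAs and β-actin (ACTB) for lncRNAs, and neither had a call. GAPDH had log2 differences of -0.02 ± 0.17 (SE) for LOW versus CON and -0.15 ± 0.17 for HIGH versus CON. Those of ACTB were -0.11 ± 0.19 and 0.07 ± 0.19.

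The levels of BCL9, BCL2L11 and BCL2L1 varied together from library to library, and BAD ran against them. BCL9, BCL2L11 and BCL2L1 were all highest in HIGH 1, and BCL9 and BCL2L11 were lowest in CON 3, where BAD was highest. Over the 9 libraries, BCL9 had a Pearson r of 0.924 with BCL2L11 and 0.913 with BCL2L1 (Spearman rho 0.80 and 0.90), and BAD had an r of -0.984 with BCL2L11 (rho -0.95). These are descriptions of 9 libraries in 3 groups and carry no test. Library-wide measures had a similar order: CON 1 and HIGH 1 had the most genes detected (28244 and 27526) and the lowest sums of deposited FPKM (803786 and 954021), and CON 3 had the fewest genes (25403) and the highest sum (1370942).

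Many genes shared these orders. Of 9120 genes with a symbol and a mean of 1 FPKM or more, 713 (7.82%) had an r of 0.9 or more with BCL9, 731 (8.02%) with BCL2L11, 348 (3.82%) with BCL2L1 and 1526 (16.7%) with BAD, but 0 with BCL2 or BAX. The genes that followed BCL9 had a median genomic span of 52427 bases and those that followed BAD one of 11554 bases, beside 26946 bases over all 9120 genes. The part of this library-wide pattern in the BCL9 difference was not tested. None of the cell type markers was called by limma in the same comparison (lowest adjusted p = 0.656). The granulosa list, most of its sum CYP11A1, summed to 171 to 181 FPKM in HIGH, below the 198 to 255 of CON and the 197 to 210 of LOW. Of its 8 genes, 2 had a positive and 6 a negative difference for HIGH versus CON, from 0.18 for AMHR2 to -0.56 for INHA. INHA and CYP11A1 (-0.34) were lower at an unadjusted p under 0.05 in limma. At that p, 3 of the 8 fibroblast and smooth muscle markers were higher in HIGH than in CON. These were COL1A1, COL1A2 and PDGFRA, with log2 differences of 1.53, 0.77 and 0.73. Of all genes, 6.7% reached that p in either direction. Of the 8 fibroblast and smooth muscle markers, 4 had a positive and 4 a negative difference, the latter TAGLN at -0.51, ACTA2 at -0.14, DCN at -0.11 and LUM at -0.01. The sum of that list overlapped, at 4580 to 6128 FPKM in HIGH and 4735 to 6981 in CON, and its part in the BCL9 difference was not tested.

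**Figure D5:**
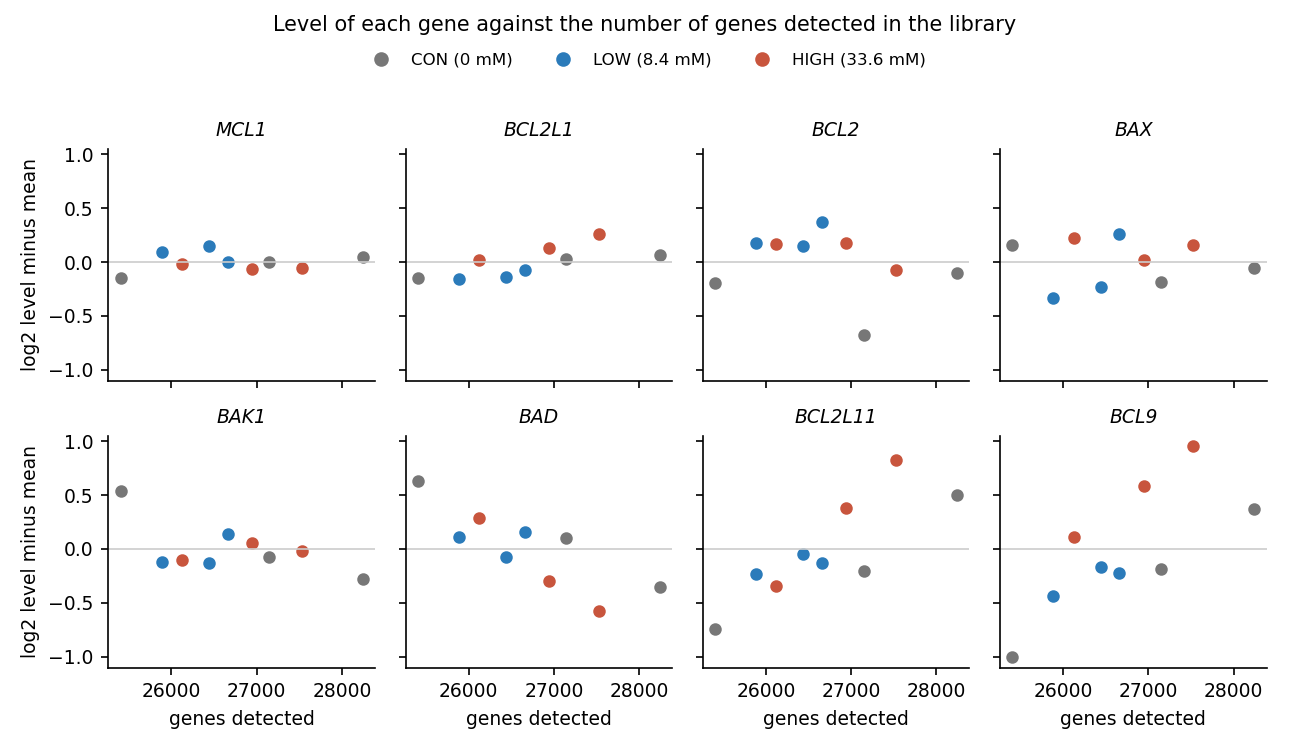
Log2 level of each of the 8 genes minus its mean over the 9 libraries, against the number of genes detected in the library (25403 to 28244), with colours for the groups. BCL2L1, BCL2L11 and BCL9 lie higher and BAD lower toward the right, and MCL1 is nearly flat. By eye, the HIGH points of BCL9 lie above the CON and LOW points at similar numbers of genes, which was not tested.

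By likeness over the 9 libraries, the genes closest to BCL9 were EP400 (r = 0.996), DSP (0.995) and DVL3 (0.994), where 1% of the 9120 genes reached 0.976 or more. Those closest to BCL2 were EFEMP2 (0.895), EIF2S2 (0.888) and PEX3 (0.864), and those closest to BAX were TMEM231 (0.893), RAMP2 (0.889) and NF2 (0.869), where 1% of genes reached 0.611 for BCL2 and 0.719 for BAX. They are the highest of all values compared and are given as a description.

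Other genes of the pathway gave no call either. Of 14 other BCL2 family genes 9 were matched and 8 tested, with medians of -0.22 for LOW versus CON and -0.24 for HIGH versus CON on the log2 scale. In LOW versus CON, 1 was higher and 1 lower at an unadjusted p under 0.05, which 1.84% of all genes reached, and in HIGH versus CON likewise 1 and 1, against 6.7%. BNIP3, a BH3-related gene known to be induced by hypoxia, had a mean of 36.2 FPKM in CON, 53.8 in LOW and 45.6 in HIGH, a log2 difference of 0.58 for LOW versus CON (unadjusted p = 0.00275, adjusted p = 1 in limma). BCL2A1, a guardian, lay at 0.15 FPKM in CON and 0.008 in LOW, levels that rest on few fragments. BOK, an effector-like gene, had 6.13, 4.82 and 3.95 FPKM in CON, LOW and HIGH, a log2 difference of -0.57 for HIGH versus CON (unadjusted p = 0.0445 in limma).

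A list of 16 genes covered the mitochondrial pore, the apoptosome and further genes. Of these 12 were matched and tested, with medians of 0.03 and 0.13 for LOW and HIGH versus CON. Some of the 12, among them BAG3, are not parts of the pore or the apoptosome. BAG3, a cochaperone, was the one gene at an unadjusted p under 0.05 in HIGH versus CON, against 6.7% of all genes, at 7.06, 6.96 and 12.7 FPKM in CON, LOW and HIGH, with a log2 difference of 0.89 for HIGH versus CON (unadjusted p = 0.0298 in limma). APAF1 and CASP9, the scaffold and the protease of the apoptosome, had log2 differences of 0.14 and -0.23 for HIGH versus CON. Of 13 Wnt partners and targets of BCL9 11 were matched and 9 tested, and 2 were higher in HIGH than in CON at an unadjusted p under 0.05, against 6.7% of all genes. BCL9L, the paralogue of BCL9, had 1.37, 1.38 and 3.81 FPKM in CON, LOW and HIGH, a log2 difference of 1.39 for HIGH versus CON (unadjusted p = 0.00135, adjusted p = 0.656 in limma). TCF7L1, a transcription factor of the pathway, had 0.29, 0.27 and 0.70 FPKM, a log2 difference of 1.10 for HIGH versus CON (unadjusted p = 0.0276 in limma). Of the 9 genes tested, 7 had a positive and 2 a negative difference for HIGH versus CON, with a median of 0.24. The 2 negative ones were LEF1 at -0.04 and CTNNB1, which encodes β-catenin, at -0.27. AXIN2, like LEF1 induced by Wnt signals in many cells, had a difference of 0.08.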

How the data were processed

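RNA from 9 libraries of cultured ovine GCs, 3 each in CON, LOW and HIGH, was sequenced. The authors aligned filtered reads with Hisat2, used Stringtie for assembly and deposited FPKM per gene and per transcript. Per the labels, their processing notes name HISAT2 and HTSeq 0.6.0, and also the aligners STAR 2.5.1b, TopHat and TopHat2. Which aligner gave the deposited values is not settled by these notes. Except for Ensembl genes without a symbol, the gene FPKM is the sum over a gene's transcripts, antisense and overlapping ones included. The authors also deposited tables named as read counts, which were treated as a score: for transcripts of genes other than those unnamed ones, each value of 200 or more lay within 3 percent of FPKM times genomic span times 1 factor per library. They were used for the conversion of FPKM to fragments and for 1 alternative of the ratios. The genome build and the strand setting are not given in the sources used here.

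FPKM were scaled on the median of the genes that reached FPKM 1 in all libraries. Ensembl genes without a symbol were scaled on their own median, since their transcript values carry another library factor. The filter kept genes that reached FPKM 0.1 in 3 or more libraries and span 300 bases or more. Differences were tested with limma 3.58.1 in R 4.3.3 on log2(FPKM + 0.1), a scale that understates differences of low genes, with all 9 libraries in 1 fit and a trend of the spread on the mean. Benjamini-Hochberg adjustment ran over 24360 genes or 39460 transcripts, and tests were two-sided. The script was tested on simulated data. A call needed an adjusted p under 0.05 and an absolute log2 difference above 1.

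The genes, lists and tests were chosen with earlier results of these data known. Besides the 10 genes, the text names up to 6 genes of the pathway lists with the smallest unadjusted p under 0.05, the 3 genes most like BCL2, BAX and BCL9, reference genes and cell type markers, and APAF1, CASP9, AXIN2, LEF1 and CTNNB1 were named outside this rule after their values were seen. All columns of the tables were mapped to a sample. Alternatives were other scalings, pseudocounts and filters, a fit of just the compared groups, a block for the replicate number, each library left out, and other sums of transcripts.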

Additional observations from a re-analysis of the deposited data

How the results depend on the processing

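Under the 21 other settings, 0 of the 8 genes were called in any comparison, and the lowest adjusted p was 0.178 (BCL9, HIGH versus CON, without CON 1, limma). Over all genes the calls numbered 2 per comparison and 1 to 8 under the other settings. Of 660 log2 differences of the 8 genes recomputed, 37 lay on the other side of 0, and their causes were not tested.

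For LOW versus CON, these were BCL2L11 at -0.10 without scaling, -0.0056 with a pseudocount of 1, -0.011 without antisense and overlapping transcripts and -0.27 with Ensembl transcripts alone. Scaled to ACTB they were BCL2L1 at 0.0031, BAX at 0.031, BAK1 at 0.0062, BAD at 0.043 and BCL9 at 0.10. BCL9 was at 0.012 scaled to GAPDH and 0.0028 with Ensembl transcripts alone, and BAD at 0.26 with the latter. Outside this count of genes, the transcript BCL9-201 was at -0.0071 with a pseudocount of 1. For HIGH versus CON, MCL1 was at 0.14 and BAK1 at 0.069 scaled to GAPDH, and BAD at 0.17 with Ensembl transcripts alone. For HIGH versus LOW, BAK1 was at -0.045 with trimmed mean scaling and -0.16 scaled to ACTB, and MCL1 at 0.0092 scaled to GAPDH. For LOW versus the mean of the others, BAK1 was at 0.083 scaled to ACTB.

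With each library left out in turn, LOW versus CON ran from -0.37 to 0.32 for BCL9, -0.29 to 0.33 for BCL2L11, -0.26 to 0.041 for BAX, -0.27 to 0.14 for BAK1, -0.30 to 0.19 for BAD, -0.18 to 0.083 for BAX-201, -0.37 to 0.33 for BCL9-201 and -0.43 to 0.052 for BAX-OT1. HIGH versus CON ran from -0.071 to 0.026 for MCL1, -0.25 to 0.15 for BAK1, -0.18 to 0.22 for BCL2-201 and -0.019 to 0.19 for BAX-201. HIGH versus LOW ran from -0.031 to 0.10 for BAK1, -0.0075 to 0.28 for BAX-201 and -0.046 to 0.95 for BCL2-AS1. LOW versus the mean of the others ran from -0.022 to 0.22 for BAD and -0.14 to 0.060 for BAK1.

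The log2 ratio of BAX to BCL2 taken from the deposited count table was -1.50 for LOW minus CON, -3.25 for HIGH minus CON and -1.76 for HIGH minus LOW. That table multiplies FPKM by genomic span, and the span of BCL2-AS1 is 193603 bases against 606 for BCL2-201. Without antisense and overlapping transcripts, HIGH minus CON was 0.051.

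The replicate numbers were not taken to pair the libraries, since not every pair with the same number had a correlation of deviations over 0.1: these ran from -0.027 to 0.417, and 4 of 9 were over it. As a hint from the data, not the design, 6 of 9 libraries correlated best with their own number. With the replicate number as a block, 0 of the 8 genes were called. BCL9 had unadjusted p-values of 0.00227 and 0.00223 and adjusted p-values of 0.264 and 0.192 for HIGH versus CON and HIGH versus LOW in limma, and over all genes 4, 4, 2 and 2 were called. Of all genes, 14.8% and 15.8% had an unadjusted p under 0.05 in HIGH versus CON and HIGH versus LOW with the block. Without it the shares were 6.7% and 7.66%. BCL2 in LOW versus CON had an unadjusted p of 0.0570 with the block in limma. A count test with edgeR or DESeq2 was not run, because the tables named as counts are not numbers of reads. With FPKM of 1 or more in 3 libraries as filter, BCL2 was not tested. At 14 to 31 fragments by the unchecked conversion, depth limits BCL2-201.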
